A study of Mus musculus with 12 samples.

Results

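The genes described here encode the DNA replication machinery, the proteins that license origins, unwind the helix, copy both strands, join the fragments and supply the deoxynucleotides of S phase. The list holds 42 genes, and a gene was read from the probe sets that name it alone. Where several did, the probe set with the highest mean log2 intensity over the 12 arrays stood for it. No difference between groups entered this choice. Of the 42 genes, 41 had such a probe set, among 22180 genes on the array that did. Rfc4, a subunit of the clamp loader, had none and was not analysed here. All 41 passed the filter on low values and were among the 17860 genes tested.

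The cells were mouse embryonic fibroblasts taken at E13.5, of the strain C57Bl/6 -129X1/SvJ and the genotype Col1a1::tetOP-OKSM ; R26-M2rtTA. This genotype carries the reprogramming factors Oct4, Klf4, Sox2 and c-Myc behind a doxycycline-responsive operator at Col1a1 and the transactivator at Rosa26. All 4 groups, controls included, carried both alleles, received a retroviral hairpin and doxycycline, and grew in embryonic stem cell medium with serum and LIF. The control hairpin targets Renilla luciferase, which mouse cells lack, and the knockdown hairpin targets Chaf1a, the large subunit of the histone chaperone CAF-1. Cells were taken after 3 or 6 days of doxycycline, with 3 arrays for each hairpin and day. No array without doxycycline was analysed here, so time on the factors and time in culture cannot be told apart. Whether the replicates were separate embryos or cultures is not stated, and the p-values then measure only how these samples vary, which may be technical. CAF-1 is known to bind the sliding clamp at replication forks, and the comparisons ask how replication genes stood early in reprogramming and whether they differed with the Chaf1a hairpin.

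Replication begins when the origin recognition complex (Orc1 to Orc6), with Cdc6 and Cdt1, loads the ring-shaped helicase of Mcm2 to Mcm7 onto DNA in G1. Cdc45, the GINS complex and Mcm10 turn that ring into an active helicase, polymerase alpha with primase starts each strand, and polymerases delta and epsilon extend them behind the Pcna clamp. Transcription of many of these genes is known to peak at the G1 to S transition under E2F factors, and their level is known to be low in cells that have left the cycle. In bulk RNA such as this, fewer cells in S phase and less RNA per cell cannot be told apart.

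Promoters of these genes are shown because the E2F site is the sequence feature that the family is known to share. RefSeq promoter windows (GRCm38.p6, 250 bases before to 50 after the start) were found for 34 of the 41 genes, in 42 windows. An E2F motif (searched as TTCGCGC, as well as TTGGCGC, as well as TTCCCGC and as well as TTGCCGC, on either strand, with overlapping matches counted) lay in 25 of the 42 windows, or 59.5%, against 9.57% of all 32851 promoter windows. By gene the motif lay in 23 of 34, or 67.6%, against 10.9% of 27025 genes. A CCAAT box, searched as CCAAT on either strand, lay in 59.5% of the windows against 37.4% of all. The cell cycle homology region, searched as TTTGAA or TTCGAA, lay in 16.7% against 19.2%. The median GC content was 60.7% in these windows and 52.7% in all, and the motif shares were not adjusted for it. Below are 4 windows, 5′ to 3′ on the gene's strand, with E2F matches in capitals. Rrm2 (chr12:24708004-24708303, plus strand) had the largest fall with time in the control cells. Pole2 (chr12:69228141-69228440, minus strand) had the largest fall among the polymerases in control cells. Mcm6 (chr1:128359656-128359955, minus strand) held 5 matches, the most of any window. Pola2 (chr19:5964157-5964456, minus strand) held none, and this gene fell with both hairpins.
Rrm2: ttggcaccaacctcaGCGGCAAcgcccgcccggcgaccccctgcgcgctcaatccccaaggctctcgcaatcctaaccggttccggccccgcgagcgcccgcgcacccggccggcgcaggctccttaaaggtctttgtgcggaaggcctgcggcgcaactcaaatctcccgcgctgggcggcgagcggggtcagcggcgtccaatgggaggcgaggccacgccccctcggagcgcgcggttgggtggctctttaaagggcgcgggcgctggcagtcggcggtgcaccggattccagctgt
Pole2: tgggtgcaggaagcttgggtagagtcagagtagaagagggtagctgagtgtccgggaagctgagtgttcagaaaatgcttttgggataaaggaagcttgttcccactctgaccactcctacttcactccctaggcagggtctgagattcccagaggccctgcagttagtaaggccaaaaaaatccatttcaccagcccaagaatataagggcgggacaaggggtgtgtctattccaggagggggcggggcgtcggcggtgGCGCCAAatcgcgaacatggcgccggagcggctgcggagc
Mcm6: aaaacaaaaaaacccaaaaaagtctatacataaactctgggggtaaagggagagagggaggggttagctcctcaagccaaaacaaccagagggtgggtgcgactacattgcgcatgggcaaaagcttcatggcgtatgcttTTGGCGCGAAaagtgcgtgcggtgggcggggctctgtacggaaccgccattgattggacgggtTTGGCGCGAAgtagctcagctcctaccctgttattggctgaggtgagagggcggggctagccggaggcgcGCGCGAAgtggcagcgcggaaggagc
Pola2: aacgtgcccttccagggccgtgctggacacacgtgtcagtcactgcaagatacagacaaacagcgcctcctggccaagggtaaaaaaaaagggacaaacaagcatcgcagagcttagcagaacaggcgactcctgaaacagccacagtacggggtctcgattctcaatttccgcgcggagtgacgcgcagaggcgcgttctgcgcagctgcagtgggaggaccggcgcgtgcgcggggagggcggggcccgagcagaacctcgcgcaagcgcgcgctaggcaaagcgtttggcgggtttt
The match in Rrm2 lies at position −235 from the start of the transcript, and that in Pole2 at position 10. Among genes with a window, the motif was present in 9 of 15 that were lower at day 6 in control and in 14 of 19 that did not pass. A match is a description of the letters, and no match says only that these letters are not in this window.

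Arrays had median intensities of 39.5 to 43.3, and arrays of a group correlated at a Pearson's r of 0.994 to 0.996 over the genes tested. For Chaf1a itself the log2 level at day 3 was 7.53 ± 0.17 in control and 7.24 ± 0.09 in knockdown (SD, n = 3, limma adjusted p = 0.726). The day 6 levels were 7.22 ± 0.14 and 7.10 ± 0.06 (adjusted p = 0.999), so the knockdown did not pass the adjusted test at the RNA level. At day 3, 0 of all 17860 genes passed that test in either direction. Chaf1a was nevertheless lower in knockdown in 3 of 3 same-number pairs on both days. Its log2 fold change was −0.29 at day 3 (limma unadjusted p = 0.00981), without overlap of the groups. At day 6 it was −0.12 (limma unadjusted p = 0.231), with overlap. Chaf1a also fell with time in control (log2 fold change −0.30, limma adjusted p = 0.0419). Of 12 fibroblast markers 11 passed the filter (Lum did not), and their mean log2 level was 9.82 to 9.84 in day 3 controls, 9.77 to 9.93 in day 3 knockdown arrays, 9.90 to 10.24 in day 6 controls and 9.85 to 10.16 in day 6 knockdown arrays. Of 5 macrophage markers 4 passed (Ptprc, which defines leukocytes, did not), and their mean was 5.90 to 6.23 in day 3 controls, 5.90 to 6.19 in day 3 knockdown arrays, 5.34 to 5.59 in day 6 controls and 5.53 to 5.60 in day 6 knockdown arrays. The 6 epithelial markers had a mean of 5.87 to 5.88, 5.72 to 5.97, 6.12 to 6.21 and 6.62 to 6.78 in the same order of groups. The 8 pluripotency markers had a mean of 4.97 to 5.02, 4.96, 4.98 to 5.06 and 5.47 to 5.72 in that order, the 3 neural markers 6.90 to 7.14, 6.65 to 6.99, 6.48 to 6.64 and 6.47 to 6.82, and the 4 endothelial markers 6.61 to 6.76, 6.67 to 6.71, 6.96 to 7.07 and 7.02 to 7.15. Among 9 interferon-stimulated genes, the mean centred log2 level was 1.07 in day 3 knockdown replicate 2 and between −0.23 and 0.02 in the other 11 arrays. The part of these shifts in the replication results was not tested.

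Many replication genes were lower at day 6 than at day 3 in control cells. Of the 41 genes, 20 fell past an adjusted p of 0.05 and 0 rose (limma, Benjamini-Hochberg over all 17860 genes), where 10.6% of all genes fell and 6.99% rose. The log2 fold change was below 0 for 40 of 41, against 47.8% of all genes, and its median was −0.28, against 0.01 over all genes. The range was −0.88 for Rrm2 to 0.15 for Rpa3. In 30 of 41 every day 6 control array lay below every day 3 control array, which held for 19.3% of all genes. The 20 that fell were Mcm2, Mcm4, Mcm5, Mcm6, Orc2, Orc4, Orc6, Mcm10, Gins1, Pola2, Prim1, Prim2, Pole, Pole2, Rfc2, Rpa1, Fen1, Lig1, Rrm1 and Rrm2.

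This count depended on single arrays. Day 6 control replicate 1 held the lowest value of 27 of the 41 genes, and without it 8 fell: Gins1, Mcm4, Mcm5, Pole2, Prim1, Prim2, Rpa1 and Rrm2. Without day 3 control replicate 2 the count was 12, and without replicate 1, 2 or 3 of all groups it was 7, 10 and 4. The share of all genes that passed in fits with arrays left out was not computed, here or below. A loss of calls in these genes therefore cannot be told from fewer calls among all genes. Mcm10 and Lig1 lost their calls without day 6 control replicate 1 or day 3 control replicate 2, Lig1 also without day 6 control replicate 3, and Rfc2 without any day 6 control array. The least stable calls were Orc4 and Rrm1, which passed 2 of 15 fits with arrays left out. Mcm2 passed 3 of 15, and Orc6 and Rfc2 passed 4 each. The median log2 fold change was −0.23 without day 6 control replicate 1, and at least 39 of 41 genes stayed below 0 in every setting tried.

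**Figure D1:**
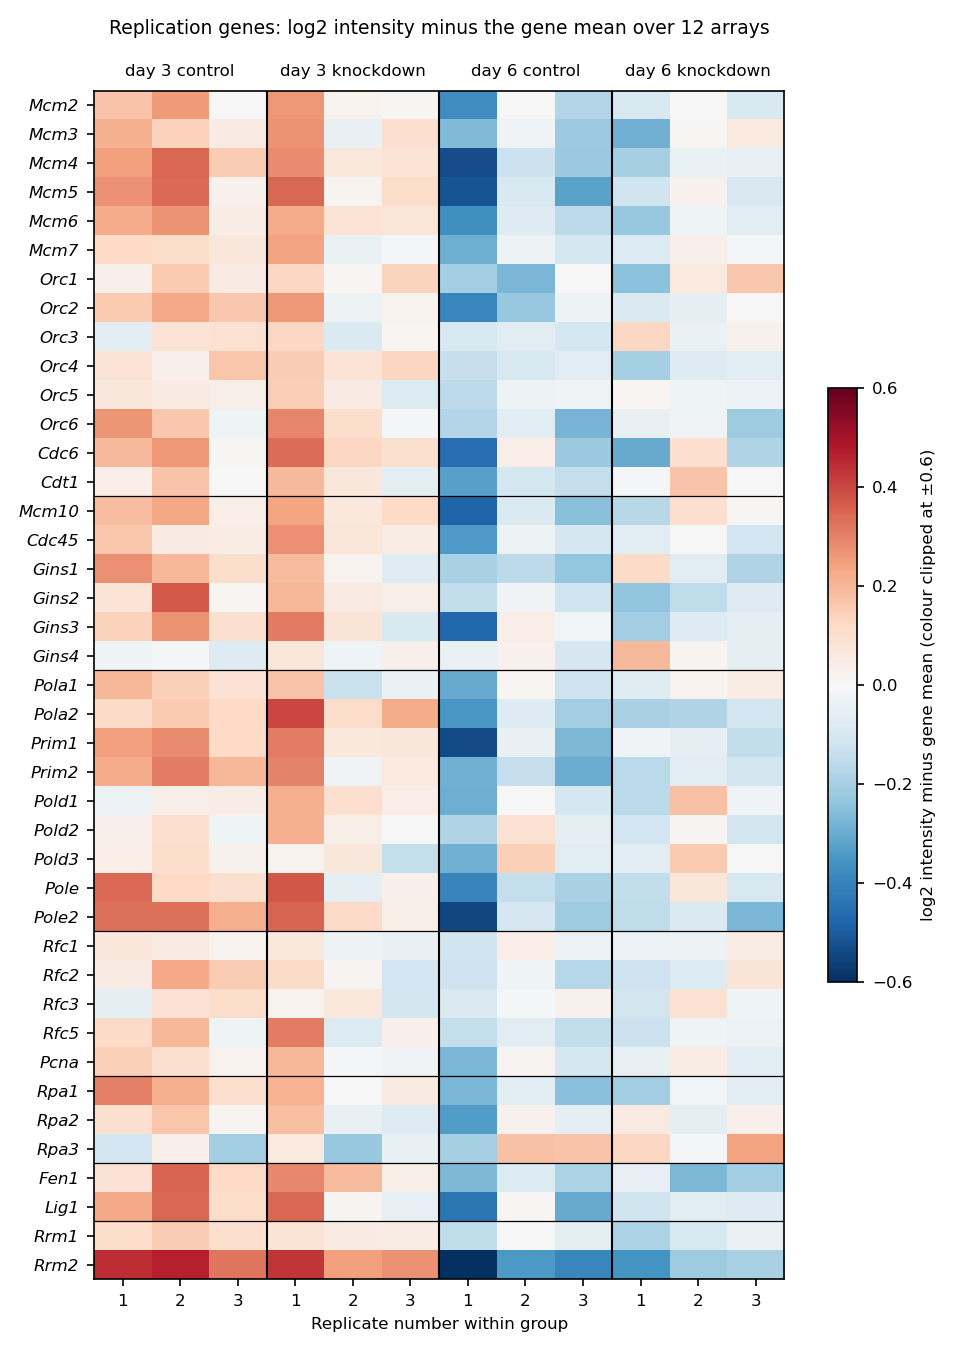
Log2 intensity of 41 replication genes in 12 arrays, each gene minus its own mean, with genes in rows by role and arrays in columns by group and replicate number. Red is above and blue below the gene's mean, with colours clipped at 0.6. The day 6 control replicate 1 column holds the lowest value of 27 genes and the day 3 knockdown replicate 1 column the highest value of 21.

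Among the 14 licensing genes, 7 fell with time in control cells and the median log2 fold change was −0.31. The share of all genes that fell in control, 10.6%, is the background for this count and for those of the roles below. In the order replicate 1, 2 and 3, which is used throughout, Mcm4, a subunit of the helicase ring, had log2 intensities of 9.86, 9.95 and 9.76 in day 3 controls and 9.08, 9.48 and 9.39 in day 6 controls. It stood at 9.89, 9.67 and 9.70 in day 3 and 9.41, 9.57 and 9.56 in day 6 knockdown arrays. The days did not overlap with either hairpin, and replicate 1 was the lowest of each day 6 group. Mcm4 fell 1.46-fold in control (log2 fold change −0.54, SE 0.10, adjusted p = 0.00349) and had a log2 fold change of −0.24 in knockdown (adjusted p = 0.136). Mcm5, the ring subunit that forms the DNA gate with Mcm2, was at 10.02, 10.09 and 9.77 in day 3 controls and 9.23, 9.66 and 9.43 in day 6 controls, without overlap. Its knockdown arrays read 10.09, 9.76 and 9.86 at day 3 and 9.63, 9.77 and 9.65 at day 6, which do overlap. Mcm5 fell in control (log2 fold change −0.52, SE 0.12, adjusted p = 0.00896), and in knockdown the log2 fold change was −0.22 (adjusted p = 0.232).

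Mcm2 and Mcm6 fell as well, by 0.32 and 0.38 on the log2 scale (adjusted p = 0.0448 and 0.0132), while Mcm3 (−0.30, 0.0721) and Mcm7 (−0.24, 0.0742) did not pass. Of the origin recognition complex, Orc2, Orc4 and Orc6 fell and Orc1, Orc3 and Orc5 did not pass. Orc4, an ATPase-fold subunit of that complex, read 9.02, 8.97 and 9.10 in day 3 controls and 8.80, 8.84 and 8.87 in day 6 controls. In knockdown arrays it read 9.09, 9.02 and 9.06 and then 8.74, 8.86 and 8.87. The days were apart with both hairpins, by a small step with a small spread. Orc4 fell in control (log2 fold change −0.19, SE 0.06, adjusted p = 0.0462) and in knockdown (log2 fold change −0.24, SE 0.06, adjusted p = 0.0172). Of 15 fits with arrays left out, its control call held in 2 and its knockdown call in 9. Cdc6, the ATPase that joins the origin complex in G1, had a log2 fold change of −0.37 in control (adjusted p = 0.0771, and 0.0473 with the replicate number as a block). Cdt1, which brings the helicase to the origin, had −0.26 (adjusted p = 0.0571, and 0.0433 with the block).

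Of 6 genes that activate the helicase, Mcm10 and Gins1 fell in control cells. Mcm10, needed to start unwinding, had levels of 8.25, 8.30 and 8.10 in day 3 controls and 7.59, 7.98 and 7.81 in day 6 controls. With the Chaf1a hairpin it had 8.30, 8.13 and 8.18 and 7.90, 8.17 and 8.07. The days were apart in control and overlapped in knockdown, and the change was −0.42 (SE 0.10, adjusted p = 0.0134) and −0.16 (adjusted p = 0.328) on the log2 scale. Gins1, a GINS subunit, read 6.05, 5.98 and 5.88 and then 5.58, 5.62 and 5.54 in control. In knockdown it read 5.96, 5.80 and 5.70 and then 5.89, 5.71 and 5.60. Its control days were apart (log2 fold change −0.39, SE 0.09, adjusted p = 0.00885), and its knockdown days overlapped (−0.09, adjusted p = 0.534).

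Gins2, another GINS subunit, was at 8.12, 8.41 and 8.05 in day 3 controls and 7.89, 8.02 and 7.92 in day 6 controls. Its knockdown values were 8.24, 8.09 and 8.08 and 7.80, 7.89 and 7.96. The days did not overlap with either hairpin, yet neither change passed (−0.25, adjusted p = 0.0773 in control, and −0.25, adjusted p = 0.0738 in knockdown). Gins4, also of GINS, had 0.00 in control (95% interval −0.16 to 0.15) and 0.02 in knockdown. Cdc45, the partner of GINS in the active helicase, had −0.24 (adjusted p = 0.0772) and −0.19 (0.164).

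**Figure D2:**
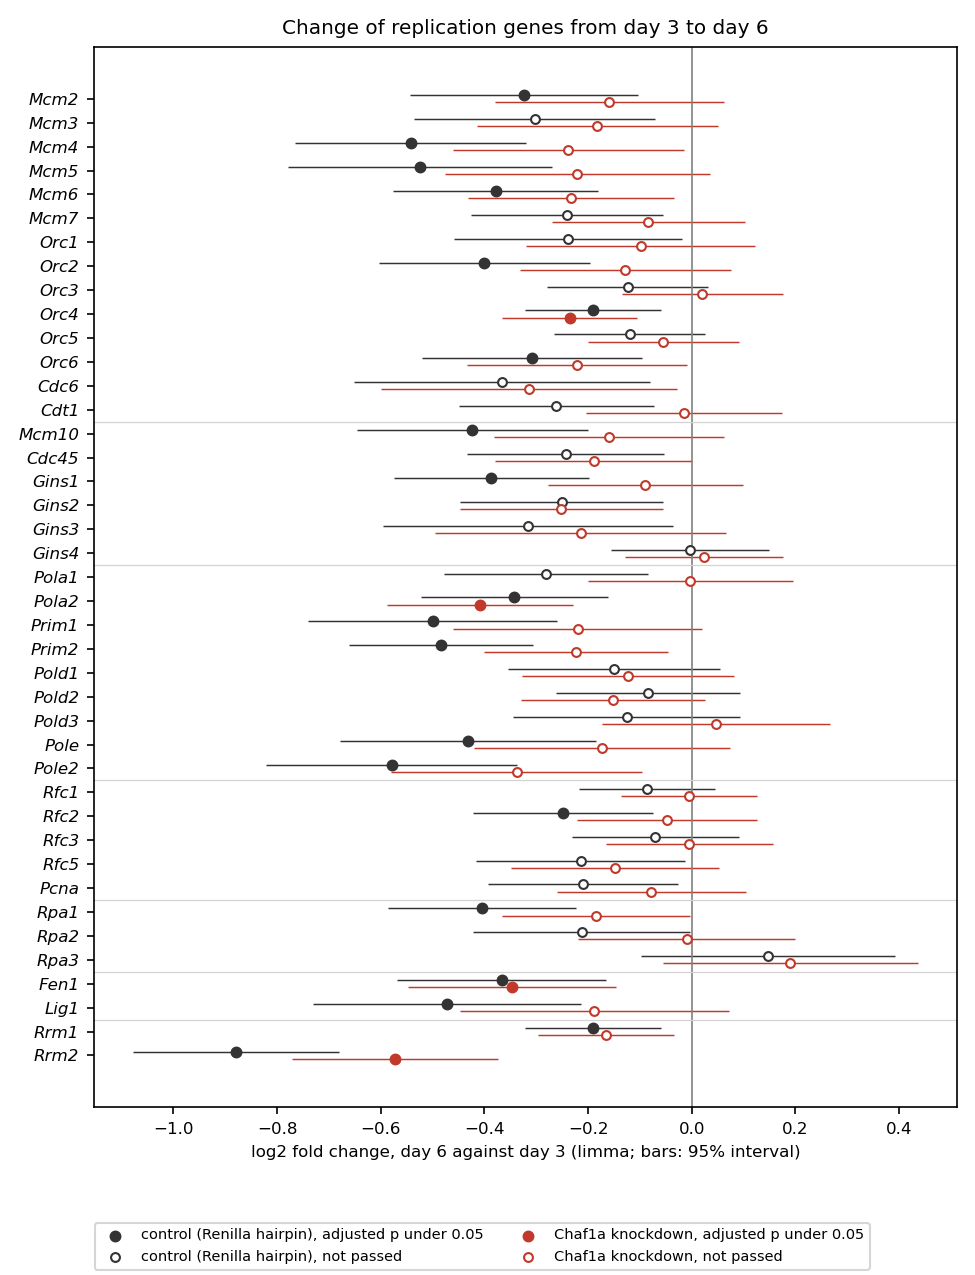
Log2 fold change from day 3 to day 6 for each of 41 replication genes in control (dark) and Chaf1a knockdown (red) cells, with 95% intervals from limma; filled points passed an adjusted p of 0.05. There are 20 filled control points and 4 filled knockdown points, and 37 genes have the control point further to the left.

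Among the 9 polymerase genes, 5 fell in control cells, all in polymerase alpha with primase or polymerase epsilon. The 3 listed subunits of polymerase delta, Pold1, Pold2 and Pold3, had −0.15, −0.08 and −0.13 and did not pass (adjusted p = 0.322, 0.548 and 0.453). Pole2, a subunit of polymerase epsilon, which makes the leading strand, read 8.02, 8.02 and 7.90 in day 3 controls and 7.14, 7.59 and 7.48 in day 6 controls. In knockdown it read 8.04, 7.80 and 7.73 and then 7.54, 7.60 and 7.42. All day 6 arrays lay below all day 3 arrays of the same hairpin. Pole2 fell 1.49-fold in control (log2 fold change −0.58, SE 0.11, adjusted p = 0.00379), and the knockdown change of −0.34 did not pass (adjusted p = 0.0543). Pole, the catalytic subunit, fell by 0.43 in control (adjusted p = 0.021). A second probe set of Pole, near background at a mean of 4.53, gave −0.04 in control and 0.05 in knockdown.

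Pola2, the regulatory subunit of polymerase alpha, was the polymerase gene that fell with both hairpins. Its controls read 8.76, 8.80 and 8.76 at day 3 and 8.29, 8.57 and 8.43 at day 6. Its knockdown arrays read 9.04, 8.75 and 8.87 and 8.45, 8.46 and 8.53. The days were apart in both, with log2 fold changes of −0.34 (SE 0.08, adjusted p = 0.0134) and −0.41 (SE 0.08, adjusted p = 0.00489). Pola1, the catalytic subunit, had 8.39, 8.34 and 8.28 and 7.89, 8.20 and 8.07 in control and did not pass (−0.28, adjusted p = 0.0502). In knockdown its values were 8.36, 8.06 and 8.15 and 8.12, 8.21 and 8.24, which overlap and have equal means to 2 decimals. Prim1, the catalytic primase subunit, had 8.29, 8.33 and 8.17 and 7.51, 8.01 and 7.78 in control, apart and lower at day 6 (log2 fold change −0.50, SE 0.11, adjusted p = 0.00826). Its knockdown values, 8.35, 8.11 and 8.12 and 8.03, 7.99 and 7.90, were apart too without passing (−0.22, adjusted p = 0.203). Prim2, the large primase subunit, fell by 0.48 in control (adjusted p = 0.00177).

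Of the 5 measured genes of the clamp and its loader, Rfc2 passed in control, and the group's median log2 fold change was −0.21 there and −0.05 in knockdown. Rfc2, a small subunit of the loader, read 7.74, 7.92 and 7.84 in day 3 controls and 7.57, 7.67 and 7.52 in day 6 controls. In knockdown it read 7.81, 7.71 and 7.58 and 7.57, 7.61 and 7.77. The control days were apart and the knockdown days overlapped. Its fall in control (log2 fold change −0.25, SE 0.08, adjusted p = 0.0497) stood at the threshold and was lost with the replicate block (adjusted p = 0.0608). Rfc5, another small subunit, had 8.50, 8.58 and 8.36 and 8.24, 8.32 and 8.23 in control, apart but not past the test (−0.21, adjusted p = 0.142). Its knockdown values were 8.69, 8.30 and 8.41 and 8.25, 8.36 and 8.35, which overlap. Pcna, the sliding clamp itself, stood at 10.69, 10.64 and 10.56 in day 3 controls and 10.26, 10.55 and 10.44 in day 6 controls. With the Chaf1a hairpin it stood at 10.74, 10.53 and 10.52 and 10.50, 10.59 and 10.47. The control days were just apart, and neither change passed (−0.21, adjusted p = 0.112, and −0.08, adjusted p = 0.582).

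Of the 3 subunits of RPA, the complex that coats single-stranded DNA, Rpa1 fell in control cells. Rpa1, the large subunit that holds most of the DNA contacts, had 9.27, 9.19 and 9.07 in day 3 controls and 8.70, 8.90 and 8.72 in day 6 controls. Its knockdown arrays had 9.18, 8.97 and 9.03 and 8.76, 8.95 and 8.91. The days were apart with both hairpins, and the fall passed in control (log2 fold change −0.40, SE 0.08, adjusted p = 0.00582) but not in knockdown (−0.18, adjusted p = 0.158). A second probe set of Rpa1, near background at a mean of 4.78, gave −0.23 in control and 0.15 in knockdown. Rpa2, the subunit phosphorylated under replication stress, had 8.09, 8.15 and 8.002 and 7.66, 8.02 and 7.93 in control. It had 8.17, 7.94 and 7.91 and 8.04, 7.93 and 8.02 in knockdown. Both pairs of groups overlap and neither change passed (adjusted p = 0.159 and 0.958). Rpa3, the small subunit, had 8.59, 8.73 and 8.49 and 8.50, 8.88 and 8.87 in control and 8.76, 8.47 and 8.66 and 8.83, 8.69 and 8.94 in knockdown. Its log2 fold change was above 0 in both (0.15 and 0.19, adjusted p = 0.431 and 0.288), with overlapping days. A second probe set of Rpa3 gave 0.13 in control and −0.02 in knockdown, and the mean of both gave 0.08 in knockdown. By the probe set used, Rpa3 was the 1 gene of the 41 above 0 in control.

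Both genes that finish Okazaki fragments fell in control cells. Fen1, the nuclease that trims the flaps, read 6.95, 7.21 and 6.98 in day 3 controls and 6.59, 6.78 and 6.67 in day 6 controls. It read 7.16, 7.05 and 6.90 and 6.81, 6.59 and 6.66 in knockdown. The days were apart with both hairpins, and the log2 fold change was −0.37 (adjusted p = 0.0169) and −0.35 (adjusted p = 0.0216). A second probe set of Fen1 gave −0.19 and −0.01, and with the mean of both the knockdown change was −0.18 (adjusted p = 0.129). Lig1, the ligase that seals the nicks, had 8.59, 8.71 and 8.48 and 7.93, 8.37 and 8.06 in control and 8.71, 8.38 and 8.31 and 8.25, 8.30 and 8.29 in knockdown. Its control days were apart (log2 fold change −0.47, SE 0.12, adjusted p = 0.0169), and in knockdown the days touched without overlap (−0.19, adjusted p = 0.323).

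Rrm2, the regulatory subunit of ribonucleotide reductase, whose supply limits deoxynucleotide synthesis, had the largest log2 fold change of the 41 genes with time, with either hairpin. It stood at 10.31, 10.34 and 10.19 in day 3 controls and 9.19, 9.53 and 9.48 in day 6 controls. With the Chaf1a hairpin it stood at 10.30, 10.12 and 10.14 and 9.51, 9.66 and 9.68. Every day 6 array lay below every day 3 array. Rrm2 fell 1.84-fold in control (log2 fold change −0.88, SE 0.09, adjusted p = 6.62e-05) and 1.49-fold in knockdown (log2 fold change −0.57, SE 0.09, adjusted p = 0.00112). With both hairpins it passed each of the 15 fits with arrays left out and each of the 7 other alternatives. Mcm4 and Pole2 also passed in all of these in control. A second probe set of Rrm2, near background at a mean of 4.45, gave −0.62 and −0.20. Rrm1, the catalytic subunit, whose protein is known to stay steady through the cycle, fell by 0.19 in control (adjusted p = 0.0462, and 0.0520 with the replicate block).

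**Figure D3:**
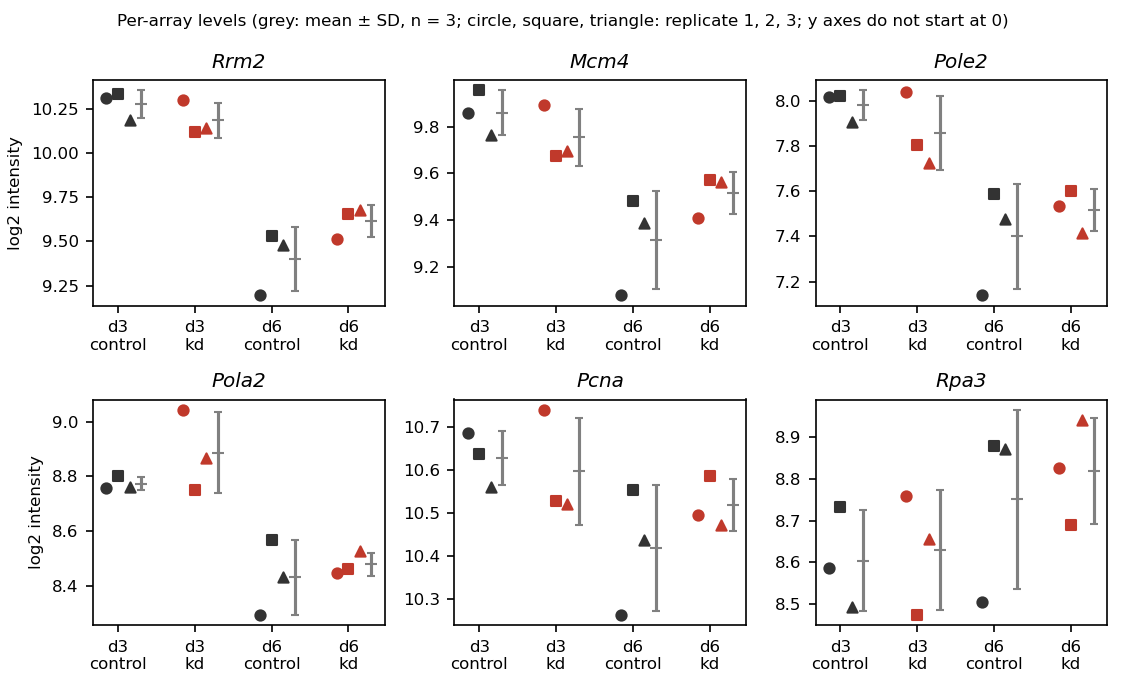
Log2 intensity of Rrm2, Mcm4, Pole2, Pola2, Pcna and Rpa3 in each array by group, with circle, square and triangle for replicates 1, 2 and 3 and grey bars for the mean ± SD (n = 3); the vertical axes do not start at 0. Rrm2, Mcm4, Pole2 and Pola2 have all day 6 arrays below all day 3 arrays of the same hairpin, while the days overlap for Rpa3 and for Pcna in knockdown.

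In knockdown cells fewer genes passed over the same days. Of the 41, 4 fell (Orc4, Pola2, Fen1 and Rrm2) and 0 rose, where 10.5% of all genes fell and 7.46% rose, so the share of members called was near the background. All 4 had also fallen in control. The log2 fold change was below 0 for 37 of 41, against 48.1% of all genes, with a median of −0.16, against 0.01 over all genes. That count was 27 without replicate 1 of all groups, 30 without day 3 knockdown replicate 1 and 32 with quantile normalisation repeated. Between arrays of the same replicate number, 38, 25 and 29 genes were lower at day 6 in replicates 1, 2 and 3. The median differences of these pairs were −0.34, −0.02 and −0.09. The groups did not overlap for 16 of 41, against 18.9% of all genes. With the replicate block Orc6 was gained (adjusted p = 0.0399, from 0.146). Without day 3 knockdown replicate 1, which held the highest value of 21 of the 41 genes, 2 fell, Pola2 and Rrm2, and the median was −0.08. Without replicate 1, 2 or 3 of all groups the count was 2, 2 and 1, and the median without replicate 1 was −0.052. Orc4 lost its call without day 3 knockdown replicate 1 or 3 or day 6 knockdown replicate 1, and Fen1 without day 3 knockdown replicate 1 or 2 or day 6 knockdown replicate 2 or 3. The count was 4, with Prim2 in place of Fen1, without day 3 knockdown replicate 2, the array with high interferon-stimulated genes.

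A larger number of calls in control than in knockdown does not show a difference, and the difference itself was tested. For 0 of 41 genes did the change with time differ between hairpins past the threshold, as for 0% of all 17860 genes in either direction, and the smallest adjusted p was 0.972. The difference, knockdown minus control, was above 0 for 37 of 41, against 50.8% of all genes, with a median of 0.14, against 0.00. For these 37 genes this is a smaller fall, or a rise, in knockdown. At an unadjusted p of 0.05, 3 of 41 passed, against 5.10% of all genes. They were Rrm2 (0.31, 95% interval 0.03 to 0.59), Gins1 (0.30, 0.03 to 0.56) and Prim2 (0.26, 0.01 to 0.51). Without day 6 control replicate 1, 30 of 41 were above 0 and the median was 0.07.

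At day 3 no replication gene passed the test between the hairpins. Of the 41, 0 passed in either direction, as 0% of all genes did, and 0 had an unadjusted p under 0.05, against 6.01% of all genes. The log2 fold change of knockdown against control was below 0 for 32 of 41, against 54.2% of all genes, and its median was −0.05, against −0.01 over all genes, with a range of −0.15 to 0.11. That balance moved with single arrays. Without day 3 knockdown replicate 1, 2 or 3, 37, 23 and 25 genes were below 0, with medians of −0.10, −0.02 and −0.01. Without day 3 control replicate 1 or 2 the median was −0.03 and −0.02, and without replicate 2 of all groups it turned to 0.02. Gins1, with the values given above, had the lowest (log2 fold change −0.15, 95% interval −0.34 to 0.04, adjusted p = 0.869). Pola1 (−0.14, −0.34 to 0.05), Rfc2 (−0.13, −0.31 to 0.04), Rpa1 (−0.12, −0.30 to 0.06) and Lig1 (−0.12, −0.38 to 0.14) followed in their own role groups. The intervals of these 5 genes include 0 and reach down to a fall of 0.38 on the log2 scale, for Lig1. Rrm1 was the 1 gene with all knockdown arrays below all control arrays, against 5.59% of all genes.

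At day 6 no replication gene passed between the hairpins either. Of the 41, 0 passed in either direction, where 0.0392% of all genes rose and 0% fell. The log2 fold change was above 0 for 37 of 41, against 46.2% of all genes, with a median of 0.10, against −0.01. These day 6 controls are the same arrays as in the control time course. Cdt1 (log2 fold change 0.25, 95% interval 0.06 to 0.43, adjusted p = 0.995), Mcm10 (log2 fold change 0.25, 95% interval 0.03 to 0.47, adjusted p = 0.999) and Rrm2 (log2 fold change 0.22, 95% interval 0.02 to 0.41, adjusted p = 0.999) had an unadjusted p under 0.05, which 4.44% of all genes had. Mcm5 had 0.25 (−0.01 to 0.50), Prim1 0.21 (−0.03 to 0.45), Lig1 0.16 (−0.10 to 0.42), Rpa2 0.13 (−0.08 to 0.34) and Pcna 0.10 (−0.08 to 0.28). Only Cdt1 and Orc3 had all knockdown arrays above all control arrays, against 5.0% of all genes. Without day 6 control replicate 1, 28 of 41 genes were above 0 and the median was 0.05, and the log2 fold change was 0.14 for Mcm5, 0.15 for Mcm10, 0.08 for Prim1, 0.06 for Lig1, 0.11 for Rrm2 and 0.02 for both Rpa2 and Pcna. Without day 6 control replicate 2 the median was 0.17.

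The same-number pairs of arrays did not move alike. At day 3 the median difference over the 41 genes, knockdown minus control, was 0.08 in replicate 1, −0.18 in replicate 2 and −0.05 in replicate 3, with 34, 4 and 14 genes above 0. At day 6 it was 0.22, 0.03 and 0.09, with 35, 27 and 33 genes above 0. So replicate 1 had the highest median on both days, and the sign at day 3 was not shared by all pairs. Genes higher in 3 of 3 pairs at day 6 numbered 20, against 13.3% of all genes, and genes lower in 3 of 3 at day 3 numbered 7, against 13.6%. Of these, Gins1, Pola1, Pold3, Rpa1 and Rrm2 were lower in every pair at day 3 and higher in every pair at day 6, and for none of the 5 did the difference between days pass.

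**Figure D4:**
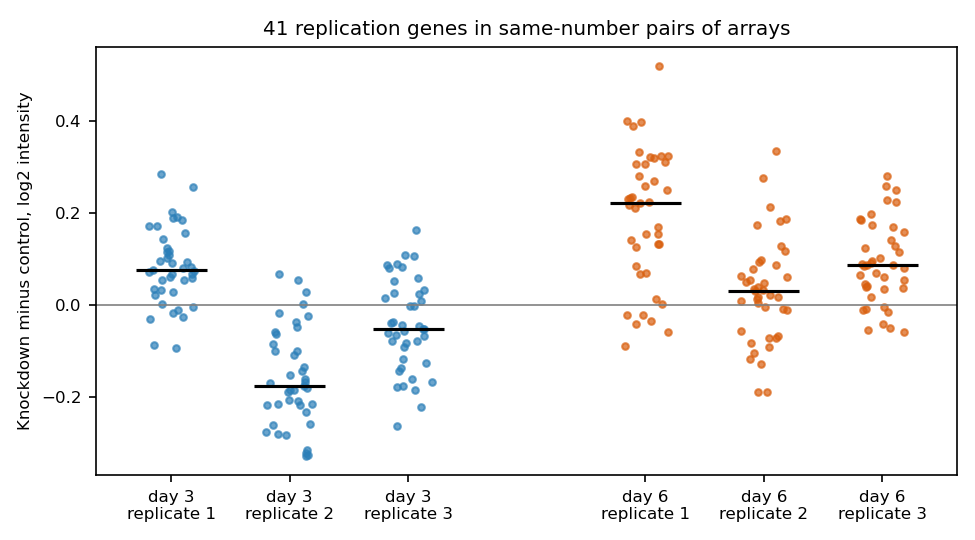
Knockdown minus control log2 intensity of 41 replication genes in each same-number pair of arrays at day 3 and day 6; each point is a gene and the black line is the median. The medians are 0.08, −0.18 and −0.05 at day 3 and 0.22, 0.03 and 0.09 at day 6.

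Other genes of DNA replication fell with time in control cells too. Over 4 further lists with 54 tested genes, 16 fell and 0 rose in control (median log2 fold change −0.20), where 10.6% of all genes fell and 6.99% rose. In knockdown 7 fell and 1 rose (median −0.07), where 10.5% of all genes fell and 7.46% rose, so that this share was near the background. Between hairpins 0 of 54 passed on either day. Ccne2, Chtf18 and Rnaseh2c had no probe set of their own. Of 14 other initiation genes 5 fell in control, among them Mtbp (−0.41, adjusted p = 0.0207) and Ticrr (−0.38, 0.0297), partners in loading Cdc45, and Dbf4 (−0.38, 0.0302) with Cdc7 (−0.37, 0.0172), the kinase that fires origins. Mtbp fell in knockdown too (−0.42, adjusted p = 0.0163). Of 18 other fork genes 6 fell in control, led by the checkpoint mediator Clspn (−0.60, 0.00888), the polymerase alpha tether Wdhd1 (−0.44, 0.0436) and the maintenance methylation pair Uhrf1 (−0.39, 0.03) and Dnmt1 (−0.38, 0.0331). In knockdown the 1 that fell was Rnaseh2b (−0.25, 0.0467), a subunit of ribonuclease H2.

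Of 9 other nucleotide supply genes, thymidine kinase Tk1 fell in control (−0.43, adjusted p = 0.0225) and knockdown (−0.38, 0.0388). Samhd1, which degrades deoxynucleotides, fell in both as well (−0.37, 0.00261, and −0.37, 0.00224). Shmt1, an enzyme of folate metabolism, rose in knockdown (0.37, 0.0142). Of 13 genes of the E2F and Rb families, E2f7 (−0.55, 0.00628), E2f8 (−0.38, 0.0363) and E2f5 (−0.34, 0.0117), all known as repressors, fell in control. In knockdown E2f7 (−0.43, 0.022), E2f5 (−0.42, 0.00301) and E2f4 (−0.28, 0.00499), another repressor, fell. Between hairpins, the most abundant signals of the 4 lists had 95% intervals of −0.14 to 0.22 (Topbp1), −0.13 to 0.14 (Mcmbp), −0.12 to 0.18 (Top1), −0.23 to 0.11 (Chtf8), 0.01 to 0.33 (Mthfd1), −0.18 to 0.11 (Samhd1), −0.08 to 0.25 (Rb1) and −0.14 to 0.17 (Tfdp1) on the log2 scale at day 6, and none of these 8 passed the adjusted test. At day 3 the log2 fold changes of these 8 genes lay between −0.12 (Mthfd1) and 0.02 (Rb1).

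Mitosis genes, which are transcribed later in the cycle, also fell with time. Of 20 tested genes 11 fell in control (median log2 fold change −0.35), where 10.6% of all genes fell, and 8 in knockdown (median −0.25), where 10.5% did. Their shares were not tested against those of the replication genes, and 0 passed between hairpins (medians −0.07 at day 3 and 0.11 at day 6). As the mean of each gene's log2 intensity minus its own mean, the 41 replication genes scored 0.14, 0.19 and 0.07 in day 3 controls and −0.30, −0.05 and −0.14 in day 6 controls. In knockdown they scored 0.22, 0.03 and 0.02 at day 3 and −0.11, −0.02 and −0.05 at day 6. The 20 mitosis genes scored 0.23, 0.17 and 0.11, then −0.35, −0.08 and −0.16 in control, and 0.28, 0.04 and 0.03, then −0.16, −0.02 and −0.10 in knockdown. With both lists day 3 lay above day 6 in every array of the same hairpin, and replicate 1 held the highest day 3 knockdown and the lowest day 6 value of each hairpin. The fibroblast markers scored 0.33 and 0.25 in replicate 1 of day 6 control and knockdown and at most 0.03 in the other 10 arrays. Their part in the low replication scores of those arrays was not tested.

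**Figure D5:**
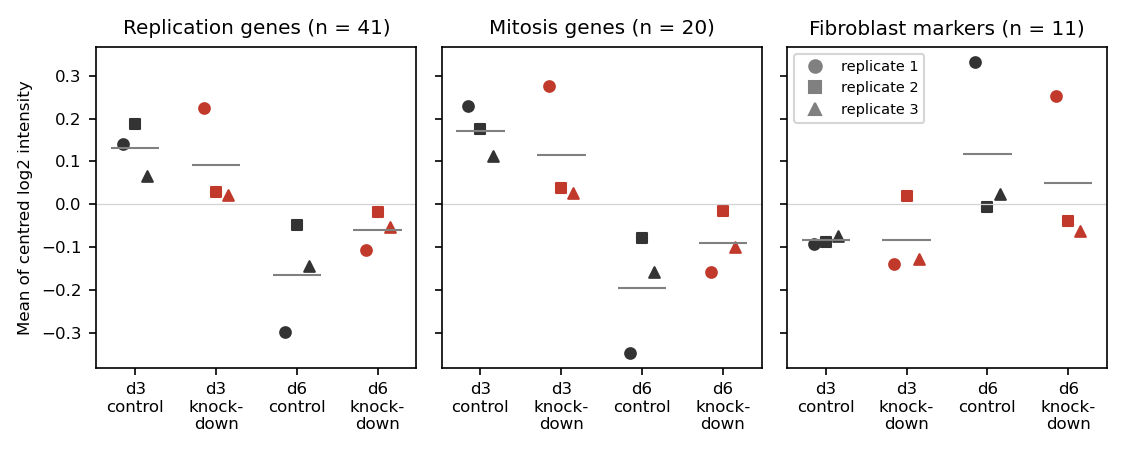
Mean centred log2 intensity of 41 replication genes, 20 mitosis genes and 11 fibroblast markers in each array, by group, with circle, square and triangle for replicates 1, 2 and 3, dark points for control, red for knockdown and grey lines for group means. Day 6 control replicate 1 is the lowest array for replication (−0.30) and mitosis (−0.35) and the highest for fibroblast markers (0.33).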

How the data were processed

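Expression was measured on 12 Affymetrix mouse arrays in 4 groups of 3, from 100 ng of total RNA per the labels' protocols, which name the molecule polyA RNA. The deposited values are signal intensities on a linear scale (4.71 to 13421), which the authors normalised by RMA, and the submitters' processing notes name Affymetrix Expression Console 1.3.0.187. A genome build is not given in the sources used here. Each intensity was converted to log2. Of 41345 probe sets, 23521 named 1 gene, 1814 several and 16010 none, and the table held no column without a sample. Genes were kept when they reached their array's 30th percentile (log2 4.30 to 4.38) in at least 3 arrays.

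All comparisons came from a single limma fit (limma 3.58.1, R 4.3.3) of 4 group means to the 12 arrays, which left 8 residual degrees of freedom and gave 4.37 prior ones. Tests were two-sided, adjusted by Benjamini-Hochberg over 17860 genes and called at 0.05, and the procedure was tested on simulated data. Tables and plots used Python 3.11.15, pandas 2.3.3 and matplotlib 3.10.9. The number of arrays limits the precision: the median half-width of a 95% interval was 0.18 on the log2 scale at day 6. The members and lists were chosen with earlier results of these data known. Per-array values are given for the gene of each role with the largest change in each comparison, taken among those that passed where any did. Of the other lists, up to 4 genes that passed are named, or else the 2 with the highest level. Same-numbered arrays of compared groups deviated together after group means were removed (r 0.137 to 0.373, above 0.1 in 12 of 12 pairs). Over all 18 same-number pairs of groups r was 0.00063 to 0.373, above 0.1 in 17. Over 36 pairs with other numbers it was −0.279 to 0.0247. The numbers were therefore taken to pair the samples, from the data and not the labels. Alternatives were the replicate number as a block, no filter, the mean of probe sets, repeated quantile normalisation, median centring, array weights, the compared groups alone, and leaving out arrays.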

Additional observations from a re-analysis of the deposited data

How the results depend on the processing

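The number of replication genes lower at day 6 in control was 20, and 15 to 24 under the 7 alternatives that keep all arrays of the groups compared. Leaving out arrays it ranged from 4 to 21. The number lower at day 6 in knockdown was 4, and 3 to 5 under those alternatives, but 1 to 5 with arrays left out. The median log2 fold change in knockdown ranged from −0.24 to −0.052 with arrays left out, around −0.16. That in control ranged from −0.36 to −0.22, that at day 3 between hairpins from −0.11 to 0.02, and that at day 6 from 0.05 to 0.17. Between hairpins, and for the difference between days, 0 replication genes passed in every setting that gives a value. The fit of the compared groups alone gives none for that difference. The log2 fold change of Rpa2 at day 6 between hairpins was 0.13 and ranged from −3.1e-06, without replicate 1 of all groups, to 0.24. The cause of these shifts was not tested, beyond the fewer arrays in each such fit.

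With the replicate number as a block, for the pairing by number, 20 replication genes fell in control, 18 of them shared with the fit without it, and 5 fell in knockdown. The smallest adjusted p between hairpins was 0.698 at day 3 and 0.772 at day 6. The block changed no call of a replication gene other than Cdc6, Cdt1, Rfc2 and Rrm1 in control and Orc6 in knockdown.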
